A study of Homo sapiens with 22 samples.

Results

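The locus described here is a 300 kb window of chromosome X (hg38, from position 65850001) that holds the microRNA gene MIR223 and the macrophage gene VSIG4, as mapped by calling cards, a method that records where a transposase places a transposon, in K562 cells, an established human leukemia line with erythroid features. The window was chosen by measured values, with earlier results of these data known: insertions beside VSIG4 were dense and differed between helpers, and every insertion that starts inside it was kept. It held 30618 of 52121915 insertions (0.0587%), all of them at TTAA, the 4-base target of the piggyBac transposon, and it was divided into 150 bins of 2 kb with 1863 TTAA sites. In all libraries a barcoded, self-reporting donor transposon with a puromycin marker was electroporated with a helper plasmid, and cells were kept in 2 ug/ml puromycin for 11 days. The helper was hyPBase in 10 libraries and hyPBase-centrip in 10. Neither helper carried a fused transcription factor as far as the labels say, and what distinguishes hyPBase-centrip is not stated in the sources used here. Transfections were combined in groups of 3, and nothing says that each library came from a culture of its own, so p-values measure the spread between these libraries, which may be technical. Libraries held 1508711 to 2909667 insertions with hyPBase and 1637255 to 3594616 with hyPBase-centrip on chromosomes 1 to 22, X and Y, of which 984 to 1811 per library lay in the window.

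Insertions of piggyBac transposase that is not fused to a factor are known to gather at active enhancers and promoters. MIR223 encodes miR-223, a microRNA of the myeloid lineage that is abundant in neutrophils and is known to be controlled by C/EBP factors and PU.1. VSIG4 encodes a complement receptor of tissue-resident macrophages.

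MIR223 and VSIG4 are neighbours that are read on opposite strands. The MIR223 hairpin lies at chrX:66018870-66018979 on the plus strand, in an exon of its host gene, the long noncoding RNA MIR223HG (chrX:66015414-66020426, plus strand), 3456 bp after the start of that gene. VSIG4 (chrX:66021738-66040125) lies on the minus strand, and its 3′ end is 2759 bp beyond the hairpin. To the left lies another annotated long noncoding RNA, ENSG00000237311 (chrX:65925836-66001436, plus strand). The sequences below are from RefSeq (GRCh38.p14) and name the microRNA that the insertions surround. In the hairpin the mature arms are in capitals, and in each arm the seed, bases 2 to 8, is in capitals.
MIR223 hairpin: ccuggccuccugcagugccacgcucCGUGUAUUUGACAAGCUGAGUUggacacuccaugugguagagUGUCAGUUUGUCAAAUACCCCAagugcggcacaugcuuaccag
hsa-miR-223-5p: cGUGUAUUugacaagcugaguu
hsa-miR-223-3p: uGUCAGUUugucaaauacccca
The 110-base hairpin holds 0 TTAA sites, so no piggyBac insertion can be recorded inside it. The nearest TTAA sites are 445 bp upstream and 1050 bp downstream.

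Insertions were not centred on VSIG4 but on a stretch to its 3′ side, and most of them lay left of MIR223HG. Bins of at least 3 TTAA sites were called dense when they held at least 5 times the chromosome X mean of 1.33 insertions per TTAA site, over the 20 libraries pooled. Of 149 such bins in the window, 41 were dense, against 3.22% of the bins of chromosome X and 8.50% of all bins, shares given for scale only, since density chose the window. The bins nearest to the limit on either side stood at 5.02 and 4.84 times the mean. Joining dense bins at most 1 bin apart gave a stretch of 50 kb, chrX:65974001-66024000, which is called the dense stretch below. It held 21382 insertions at 285 TTAA sites, or 75.02 per site, which was 56.4 times the chromosome X mean and 69.8% of the insertions in the window. Of these, 18890 lay left of MIR223HG and 1416 in MIR223HG. With bins of 1 kb the stretch ended before MIR223HG.

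The dense stretch began inside ENSG00000237311, ran over its 3′ end and over all of MIR223HG, and ended 2263 bp inside the 3′ end of VSIG4. Density was 113 insertions per TTAA site in the gap between ENSG00000237311 and MIR223HG and 101 in MIR223HG. It was 5.67 in the rest of the VSIG4 body and 3.89 within 1 kb of the VSIG4 start. The rest of the VSIG4 body was uneven, with 1 dense bin, chrX:66030001-66032000, at 21.7 insertions per site. The VSIG4 start, where a promoter lies, was thus among the sparse parts of the locus: 35 insertions were found there in 20 libraries, with 0 to 6 per library.

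**Figure D1:**
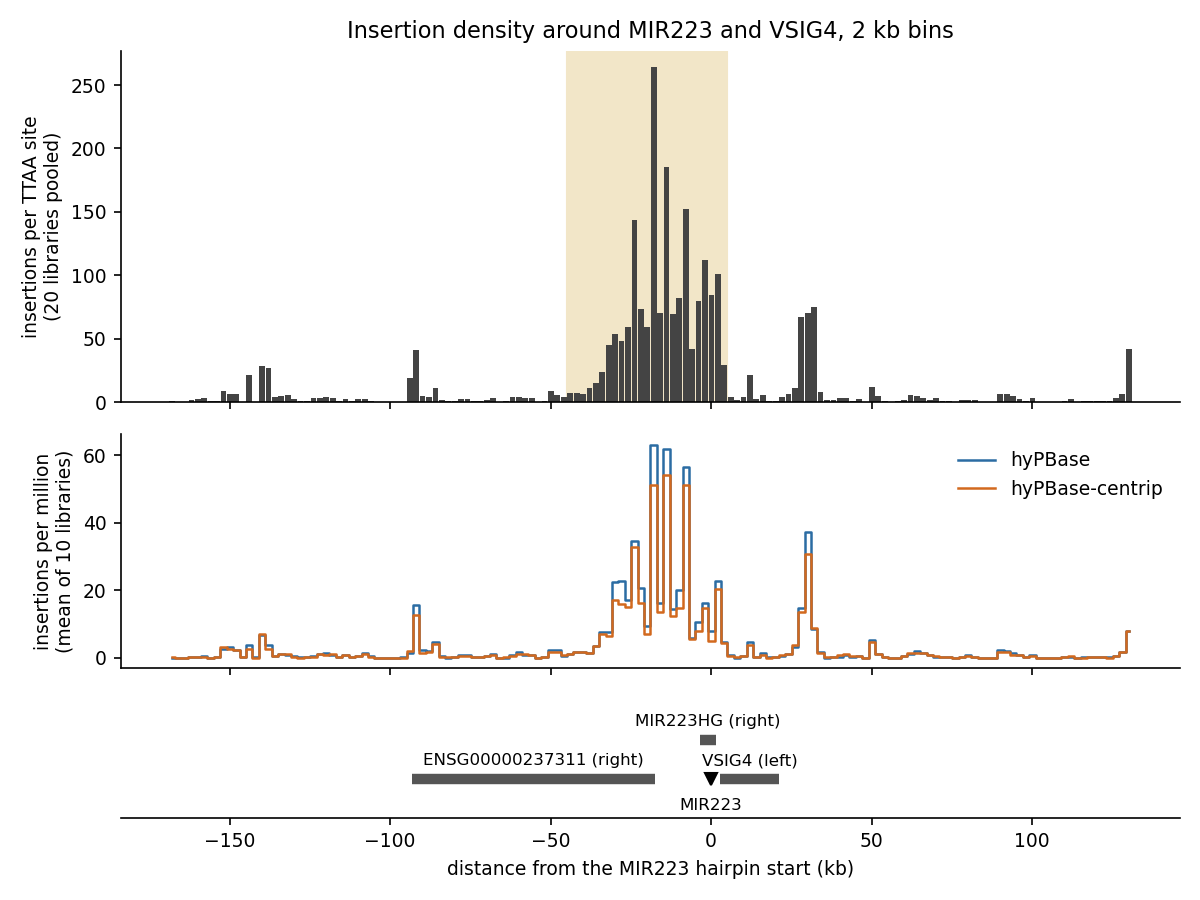
Insertions per TTAA site in 2 kb bins with at least 3 TTAA sites (top, 20 libraries pooled), mean CPM in each helper (middle, 10 libraries each) and annotated genes with the direction of reading (bottom), against distance from the MIR223 hairpin in kb. The shaded dense stretch holds 69.8% of the insertions and ends just inside VSIG4, and the next high group lies to the right of the VSIG4 start.

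Outside the dense stretch the densest run with more than 1 bin lay upstream of VSIG4. It spanned 12 kb (chrX:66042001-66054000), from 1876 to 13875 bp before the VSIG4 start, and held 3262 insertions, 42.4 per TTAA site. A run of 4 kb at the start of ENSG00000237311 (chrX:65924001-65928000) held 826, or 35.9 per site. The last bin of the window, 31.2 times the chromosome X mean, held 415 insertions and lay before HEPH, a ferroxidase gene that starts 12671 bp beyond the window. This pattern was shared by the libraries: over the 150 bins, Pearson's r between the profiles of 2 libraries was 0.955 to 0.994 over 190 pairs, with a median of 0.986 for pairs across helpers and 0.988 for pairs within a helper. The bins share base composition and the number of TTAA sites, so these values are a description.

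The 5 densest bins were all in the dense stretch. The densest, chrX:66000001-66002000 at the 3′ end of ENSG00000237311, held 2903 insertions, 264 per TTAA site. No bin of chromosome X was denser, which is given for scale only, since density chose the window. The next were chrX:66004001-66006000 with 185 per site, chrX:66010001-66012000 with 152, chrX:65994001-65996000 with 143 and chrX:66016001-66018000, inside MIR223HG, with 112. The bin of MIR223 itself held 339 insertions at 4 sites, 84.8 per site. The bin of the VSIG4 start held 34 at 8 sites, 4.25 per site, in 16 of 20 libraries.

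Single TTAA sites carried much of the signal. In the dense stretch 271 of 285 sites were hit and 100 were hit in all 20 libraries, whereas 21 of 1578 sites in the rest of the window were hit in all of them. The 10 most used sites held 20.6% of the insertions of the stretch. The 5 most used sites of the window are shown with 25 bases on each side (hg38, plus strand, TTAA in capitals), because they show the kind of target that was used again and again. The first and the last lie in an exon of ENSG00000237311, and the others are intergenic.
chrX:66000655-66000708: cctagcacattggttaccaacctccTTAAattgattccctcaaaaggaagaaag
chrX:66010113-66010166: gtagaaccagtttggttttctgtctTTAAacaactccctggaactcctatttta
chrX:66004778-66004831: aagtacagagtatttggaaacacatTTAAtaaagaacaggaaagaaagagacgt
chrX:66049899-66049952: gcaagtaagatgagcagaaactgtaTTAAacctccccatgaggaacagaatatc
chrX:66000889-66000942: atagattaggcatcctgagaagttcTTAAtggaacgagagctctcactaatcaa
They held 612, 592, 492, 490 and 452 insertions, and the fourth lay in the run upstream of VSIG4. At the first site each hyPBase library had 27 to 35 insertions (median 31.5) and each hyPBase-centrip library 24 to 36 (median 30). These counts were not scaled to library size, so they do not compare the helpers. Scaled, the bin of this site had a log2 fold change, hyPBase-centrip over hyPBase, of -0.31 (SE 0.06). A site has a limited number of distinguishable insertions per library, since a line of the files is a combination of position, orientation and barcode and none was repeated in the window. With the 21 barcodes that each made up at least 0.5% of insertions there are 42 combinations per site, and the first site filled 57.1% to 85.7% of them in each library. None of the other 4 sites filled more than 85.7%.

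The bases next to TTAA differed among the sites. In the dense stretch, sites with T before and A after TTAA held 107 insertions per site over 35 sites, sites with 1 of these bases held 76.8 over 139, and sites with neither held 62.6 over 111. The order was the same in the rest of the window at 10.5, 6.80 and 2.92. Sites share libraries and neighbouring positions, so these are descriptions.

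Orientation did not choose the locus and was tested. An insertion in the plus orientation points the way MIR223 and MIR223HG are read, and one in the minus orientation the way VSIG4 is read. Insertions near MIR223 were almost all in the minus orientation, against the direction of the microRNA, and insertions in VSIG4 were mostly in the plus orientation, against the direction of that gene. Of 339 insertions within 1 kb of the hairpin, 0.295% were in the plus orientation. The plus share was 0.435% ± 1.37 (SD, n = 10) with hyPBase, and with hyPBase-centrip 0 of 143 insertions were plus, which allows a share of up to 2.10%. All 339 lay upstream of the hairpin, at 4 sites.

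Over the MIR223HG body the plus share had a lowest value of 8%, a median of 11.6% and a highest of 16.25% in the hyPBase libraries, and 2.08%, 7.54% and 21.1% in the hyPBase-centrip libraries. All 20 libraries were below 50%, with means of 11.5% ± 2.86 and 8.33% ± 5.42 (SD, n = 10 each). All 14 TTAA sites of MIR223HG lay in its exons as annotated. The 12 sites before the hairpin held 1148 of the 1416 insertions, each with at most 11.8% plus. At the nearest of them 0 of 23 insertions were plus, which allows up to 13.0%. After the hairpin the minus excess did not hold throughout. The first site there had 132 insertions with 18.9% plus, and the last site of MIR223HG had 136 with 54.4% plus.

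In the VSIG4 body the plus share was 56.4% to 69.7% with hyPBase (median 63.9%) and 51.9% to 71.1% with hyPBase-centrip (median 57.9%), so all 20 libraries were above 50%. The means were 64.0% ± 3.98 and 59.8% ± 6.89 (SD, n = 10 each). When insertions with 1 read were dropped, the hyPBase-centrip mean was 4.29 points above 50%, against 9.82 with all insertions, and no longer past the threshold (exact sign-flip permutation p = 0.262). Leaving out the 3′ end that lies in the dense stretch, which was done after the values were seen, the shares were 87.6% ± 7.88 and 83.9% ± 8.08 over 380 insertions. Of these, 217 lay in the single bin chrX:66030001-66032000, at 93.5% plus. The other bins wholly in this part ranged from 51.7% to 100% plus. In the 3′ end left out here, the bin chrX:66022001-66024000 went the other way, at 34.5% plus over 235 insertions. Near the VSIG4 start 91.4% of the 35 insertions were plus.

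The shift of orientation held between the large parts of the window, but not in every bin. Among bins with at least 20 insertions, 26 of 35 left of the dense stretch were below 50%. To its right 27 of 32 were above 50%, while the last bin of the window stood at 36.9% plus over 415 insertions. The plus share was 30.7% ± 3.57 and 28.9% ± 2.98 left of the dense stretch, 36.2% ± 0.787 and 35.4% ± 1.73 in it, and 55.5% ± 2.53 and 57.9% ± 3.21 right of the VSIG4 start, with hyPBase and hyPBase-centrip in that order (SD, n = 10 each). Left of the dense stretch, in it, in MIR223HG and around MIR223 all 10 libraries of each helper were below 50%, and in VSIG4 and to its right all 10 were above. Each of these 12 departures gave p = 0.00195 in an exact two-sided sign-flip permutation test over libraries, the smallest p that 10 libraries allow, and an adjusted p of 0.00228. They are not separate results, since segments share insertions. The MIR223 segment lies in MIR223HG, MIR223HG lies in the dense stretch, and VSIG4 reaches into that stretch. Within 1 kb of the VSIG4 start, 5 hyPBase libraries had an insertion, and the exact sign-flip permutation test gave p = 0.0625, the smallest that 5 allow. With hyPBase-centrip it gave an adjusted p of 0.00841, with 8 of 10 libraries above 50% and none below. In the run upstream of VSIG4 the share was closer to even, at 52.7% ± 2.63 and 55.6% ± 3.61 (SD, n = 10 each), with 8 and 9 of 10 libraries above 50% and adjusted p of 0.0141 and 0.00431 over all 16 segments by the same exact test.

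**Figure D2:**
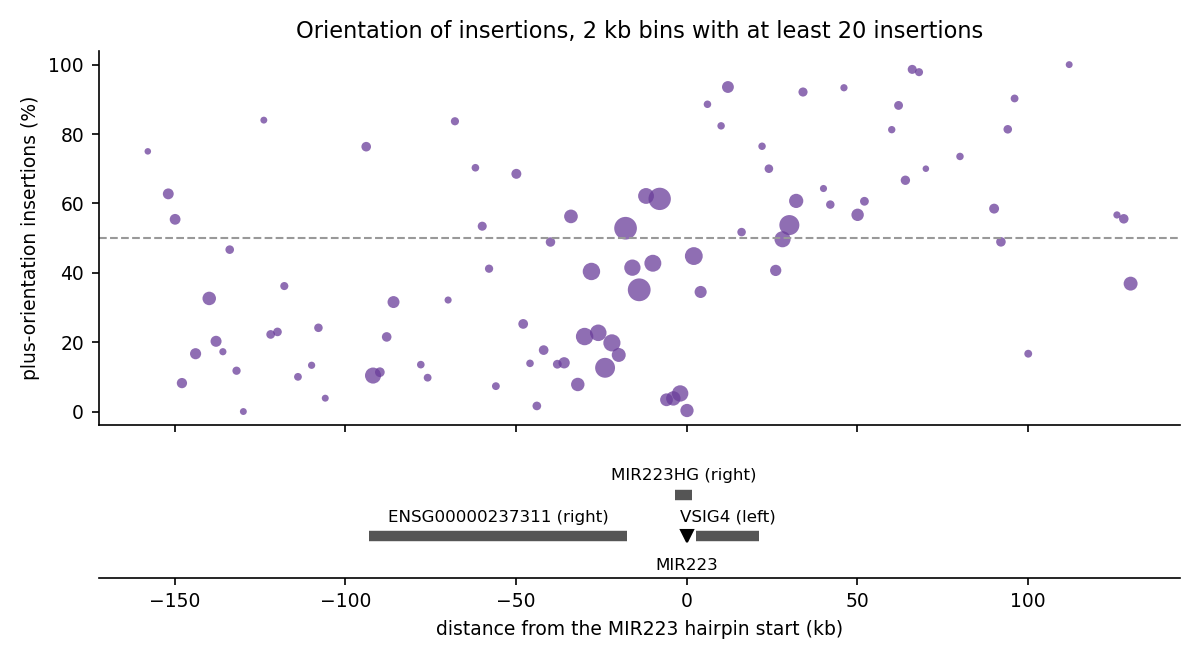
Share of insertions in the plus orientation (%) for 2 kb bins with at least 20 insertions, 20 libraries pooled, against distance from the MIR223 hairpin in kb, with point size growing with the number of insertions and the annotated genes below. The bins just left of and at MIR223 lie near 0, and 27 of 32 bins right of the dense stretch lie above 50%.

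Within the dense stretch the orientation was not uniform. In the gap between ENSG00000237311 and MIR223HG the plus share was 43.5% ± 1.11 and 44.6% ± 2.23 (SD, n = 10 each), and the bin chrX:66010001-66012000 stood at 61.3%. Over the 4 next bins, chrX:66012001-66020000, it fell to between 0.295% and 5.21%, and per library these 4 bins together gave 1.79% to 5.83% with hyPBase and 2.27% to 5.68% with hyPBase-centrip. One-sided bins are not rare in these data: 9.89% of the 37105 bins with at least 200 insertions had at least 94.5% of their insertions in 1 orientation, and in the window these were 4 of 29. The limit of 94.5% was set after the values were seen.

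Compared with genes across the genome, MIR223HG stood at the one-sided end. Of its insertions 89.9% were opposite to the direction of the gene, against a median of 66.8% over 13215 protein-coding and microRNA host genes with at least 200 insertions, and 4.59% of these genes had as large a share. VSIG4, with 62.0%, was near the middle, since 61.0% of the genes had as large a share. Its value pools unlike parts. The share was 85.5% over 380 insertions outside the dense stretch and 34.5% in the 3′ bin chrX:66022001-66024000. Genes are not replicates, and these shares carry no test.

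**Figure D3:**
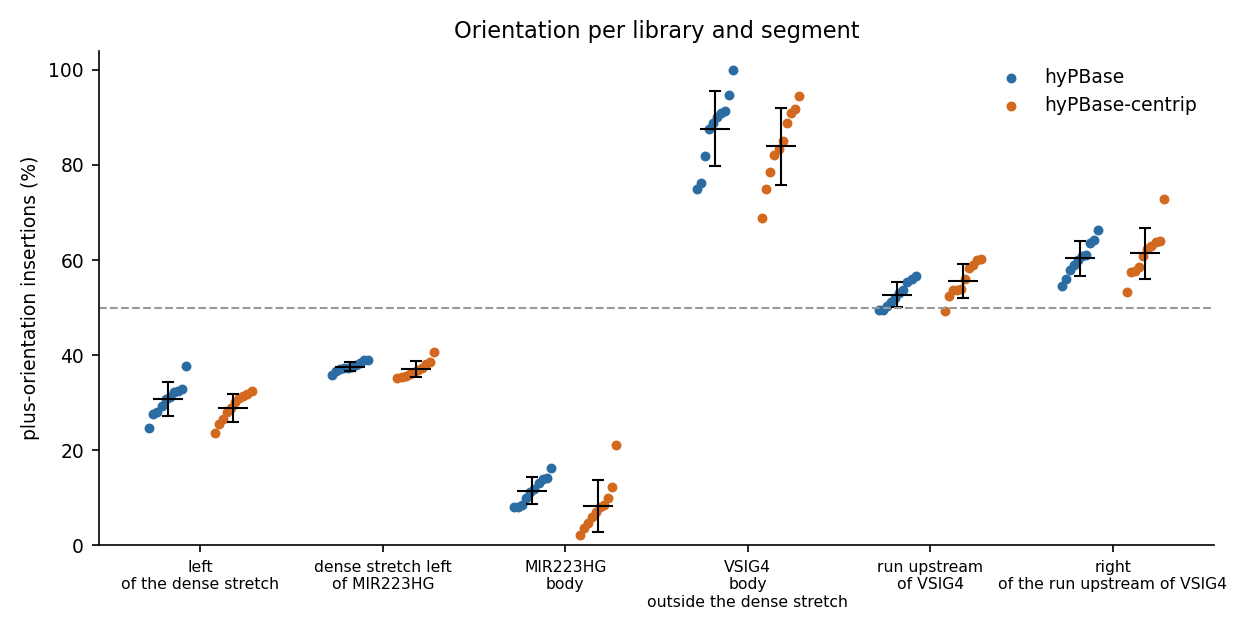
Plus-orientation share (%) per library in 6 segments of the window, in order along the chromosome, for hyPBase and hyPBase-centrip, where points are libraries and the bars give mean and SD over 10 libraries. MIR223HG lies lowest and the VSIG4 body outside the dense stretch highest, and the helpers overlap in each segment.

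The helpers did not differ detectably in orientation. Over 7 segments, the adjusted p of a permutation test between helpers was 0.286 or more. The difference, hyPBase-centrip minus hyPBase, was -0.79 percentage points in the dense stretch and -4.21 in VSIG4, where the libraries of the helpers overlapped. In the body of ENSG00000237311 the hyPBase libraries gave a plus share of 31.7% ± 1.49 and the hyPBase-centrip libraries one of 29.2% ± 2.25 (SD, n = 10 each). Its permutation p was 0.0104, and 0.167 when adjusted over all 16 segments measured.

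The number of reads behind an insertion did not choose the locus, but it may depend on density, which did. Insertions alike in position, orientation and barcode count as 1 line, so their reads add up where a site fills. The 5 most used sites of the window carried 5.61 to 8.73 reads per insertion, with 20 libraries pooled. Whether this raised the values of the dense stretch was not tested, so its p-values against the library mean are a description. In the dense stretch an insertion carried 4.47 ± 0.875 reads in the hyPBase libraries and 3.41 ± 0.710 in the hyPBase-centrip libraries (SD, n = 10 each). Relative to the mean of the same library this was 0.20 ± 0.08 and 0.18 ± 0.08 higher on the log2 scale, and it was higher in 10 of 10 libraries of each helper (exact sign-flip permutation test, adjusted p = 0.0117 for each). Insertions within 1 kb of MIR223 did not share this: the values were -0.26 ± 0.61 with hyPBase (exact sign-flip adjusted p = 0.323) and -0.38 ± 0.39 with hyPBase-centrip (0.0293 in the same test, lower in 9 of 10 libraries). Right of the VSIG4 start the log2 values were -0.10 ± 0.11 (adjusted p = 0.0563) and -0.12 ± 0.08 (adjusted p = 0.0156) by the same exact test. Between helpers no segment passed in a permutation test, with adjusted p of 0.737 or more. Left of the dense stretch the log2 difference, hyPBase-centrip minus hyPBase, was 0.10 (permutation p = 0.123, unadjusted), and 0.15 (permutation p = 0.0108, unadjusted) without hyPBase-centrip replicate 3.

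The contrast between helpers led to the choice of this locus, so its values are a description. Levels are given as CPM, insertions per 1000000 insertions of the library. In the dense stretch the hyPBase libraries had a lowest value of 400.2 CPM, a median of 452.2 and a highest of 501.2, and the hyPBase-centrip libraries 338.3, 378.2 and 442.8. The groups overlapped: 2 hyPBase-centrip libraries were above the lowest hyPBase library, and 4 hyPBase libraries were below the highest hyPBase-centrip library. Means were 451.8 ± 31.4 and 382.5 ± 32.5 (SD, n = 10 each), a log2 ratio of -0.24, or 15.3% lower with hyPBase-centrip. MIR223HG gave 30.1 ± 2.78 and 25.2 ± 2.50, and the VSIG4 body 14.9 ± 3.39 and 12.3 ± 2.55.

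Among the segments with at least 100 insertions the difference was largest within 1 kb of MIR223, a ranking made by the contrast that chose the locus. MIR223HG as a whole was 16.4% lower with hyPBase-centrip. Within 1 kb of MIR223 the hyPBase libraries held 5.30 to 9.58 CPM (median 8.70) and the hyPBase-centrip libraries 1.83 to 7.24 (median 5.00), with means of 7.96 ± 1.47 and 5.02 ± 1.39 (SD, n = 10 each), 36.9% lower. These values rest on 8 to 26 and 3 to 21 insertions per library. Right of the run upstream of VSIG4 the means were 37.2 ± 2.75 and 35.3 ± 4.94, which is within the spread.

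By edgeR's quasi-likelihood test over all bins with enough insertions, 7 of 29 tested bins of the window were called, all lower with hyPBase-centrip, and 6 of them lay in the dense stretch. Over the genome 2.15% of tested bins were called, 1.38% as lower and 0.763% as higher. The same contrast chose the locus, so nothing is read from the count. With library size as a term 6 of the 29 were called, against 3.02% of all. Of the 29 bins 26 had a negative log2 fold change, and the median was -0.19 against 0.00 over all tested bins. The MIR223 bin, which holds the same 339 insertions as the segment within 1 kb of MIR223, had a log2 fold change of -0.63 (SE 0.15, edgeR adjusted p = 0.0092). The bins on either side of it, chrX:66016001-66018000 and chrX:66020001-66022000, stood at -0.10 (SE 0.09) and -0.16 (SE 0.08), and neither was called. The bins with the smallest p were chrX:65990001-65992000 (-0.50, SE 0.09) and chrX:66000001-66002000 (-0.31, SE 0.06). On the higher side they were chrX:65878001-65880000 (0.06, SE 0.15) and chrX:66050001-66052000 (0.10, SE 0.13), and neither was called.

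Library size moved with the level of the dense stretch. Within hyPBase, CPM fell with the number of insertions in the library (Pearson's r = -0.80, permutation p = 0.00383, Spearman's rho = -0.78, permutation p = 0.0102, n = 10), and so they did within hyPBase-centrip (r = -0.84, permutation p = 0.00251, rho = -0.83, permutation p = 0.00508, n = 10). Adjusted over 8 relations, the p of both r values was 0.0153. Without the 2 libraries farthest from the median size r was -0.64 (permutation p = 0.0908, n = 8) and -0.56 (permutation p = 0.145, n = 8), and rho was -0.60 and -0.67 (permutation p = 0.133 and 0.0825), of the same sign but no longer past the threshold. Left of the dense stretch and in the run upstream of VSIG4 r was between -0.41 and 0.11 and did not pass. For reads in the dense stretch, scaled in the same way, r was -0.28 with hyPBase (permutation p = 0.440, n = 10) and -0.55 with hyPBase-centrip (permutation p = 0.0939, n = 10). The 4 largest libraries were hyPBase-centrip libraries. With library size as a term the helper difference in the dense stretch was -0.19 (SE 0.03) on the log2 scale, and with reads in place of insertions it was -0.27. The part of library size or of filled sites in the difference was not tested further, and helper and preparation cannot be told apart.

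**Figure D4:**
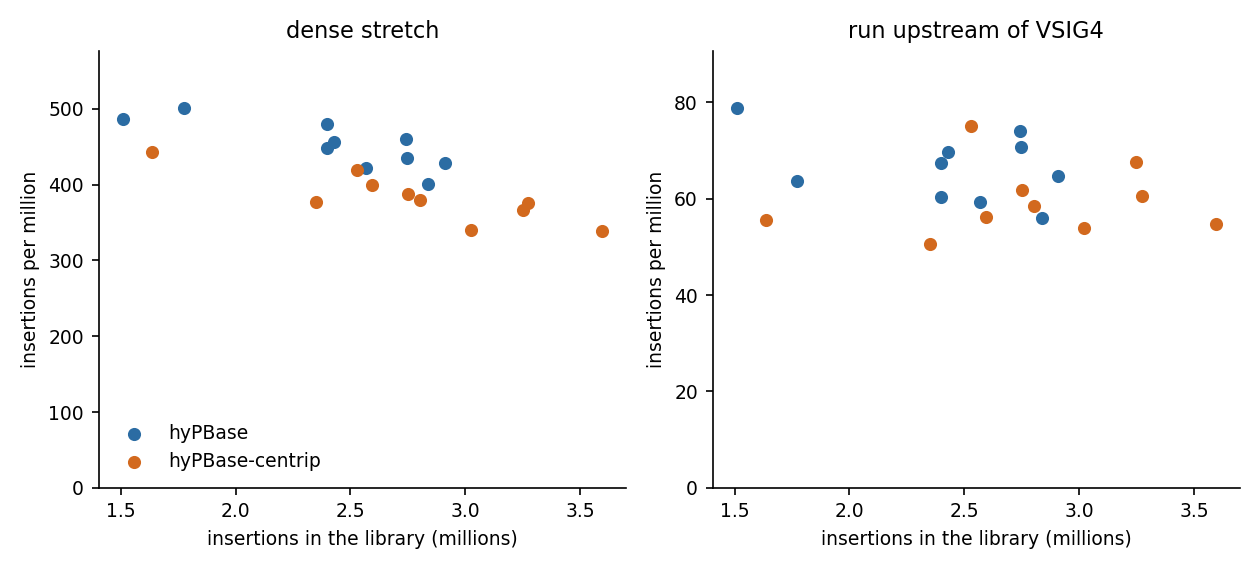
Insertions as CPM in the dense stretch (left) and in the run upstream of VSIG4 (right) against the number of insertions in the library, 1 point per library, both y axes starting at 0. In the dense stretch larger libraries lie lower within each helper, and 2 hyPBase-centrip libraries lie above the lowest hyPBase library.

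The sequence of the locus was searched for letters bound by factors known for MIR223. For GATA factors the letters were AGATAA. For ETS factors such as PU.1 they were GAGGAA, and the C/EBP core was searched by name, each on both strands. Of the 25 bins of the dense stretch 23 held GATA, against 75.9% of all bins, 22 held ETS, against 79.8%, and 20 held C/EBP, against 67.3%. The annotated MIR223HG start is shown from 250 bases before to 50 after it (hg38, chrX:66015164-66015463, plus strand), with GATA and ETS matches in capitals, because insertions of 1 orientation lie on both sides of it.
MIR223HG start: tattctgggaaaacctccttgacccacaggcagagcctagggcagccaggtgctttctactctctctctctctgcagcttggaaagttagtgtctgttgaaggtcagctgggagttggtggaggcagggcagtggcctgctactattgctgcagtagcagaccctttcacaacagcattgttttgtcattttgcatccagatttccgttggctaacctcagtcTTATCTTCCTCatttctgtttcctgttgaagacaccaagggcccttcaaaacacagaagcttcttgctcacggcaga
It held 1 GATA and 1 ETS match, which overlap by 1 base and begin 27 and 22 bases before the start, and no C/EBP match. Such matches occur in 10.3%, 27.9% and 10.5% of 35116 RefSeq promoters of this length (GRCh38.p14), and the VSIG4 promoter held none of the 3. The shown window has 0 TTAA sites, so it could receive no insertion.

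Genes known to act with MIR223 or VSIG4 were compared by insertions per TTAA site over the gene with 5 kb on each side, pooled over 20 libraries. Measured this way MIR223 stood at 82.6, MIR223HG at 77.0 and VSIG4 at 24.0, and these 3 regions share sites. Only 0.0649% of protein-coding genes were denser than MIR223HG, a share given for scale only, since density chose the window. Among 10 regulators of MIR223 the median was 13.6. The highest were CEBPB, a C/EBP factor, at 84.3 and LMO2, a partner of erythroid factors, at 35.1. The lowest were SPI1, which encodes PU.1, at 5.70 and GFI1, a myeloid repressor, at 3.21. Among 12 genes known as miR-223 targets the median was 5.64, with LMO2 and NFIA (14.7) highest and IGF1R (1.65) and FOXO1 (1.23) lowest.

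Macrophage and complement genes did not share the density of the locus. Over 14 of them the median was 3.08, with FCGR3A, an Fc receptor, highest at 16.7 and CR1, a complement receptor, at 15.5, and with MARCO, a scavenger receptor, at 0.959 and TIMD4, a macrophage receptor, lowest at 0.643. None of the 14 was above VSIG4 with its flanks, which reach into the dense stretch that chose the locus, whereas the VSIG4 body alone stood at 9.17 and its part outside that stretch at 5.67. The 6 neighbours on X had a lower median, 0.872. They ran from EDA2R, a receptor of the TNF receptor family, at 0.240 to HEPH at 3.07 and MSN, which encodes moesin, at 3.73. The mean of chromosome X was 1.33 insertions per site, against 2.71 over the genome. Among 5 microRNA host genes MIR17HG (18.5) and MIR142HG (9) were highest and MIR155HG (6.86) and MIR181A1HG (1.17) lowest. As a check of the cell line, 6 erythroid genes had a median of 25.5, from TFRC (6.49) and EPOR (11.6) to GATA1 (37.4) and NFE2 (52.3), and 6 lymphoid genes a median of 2.71, with MS4A1 at 1.37, LCK at 5.93 and CD79A highest at 9.84.

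**Figure D5:**
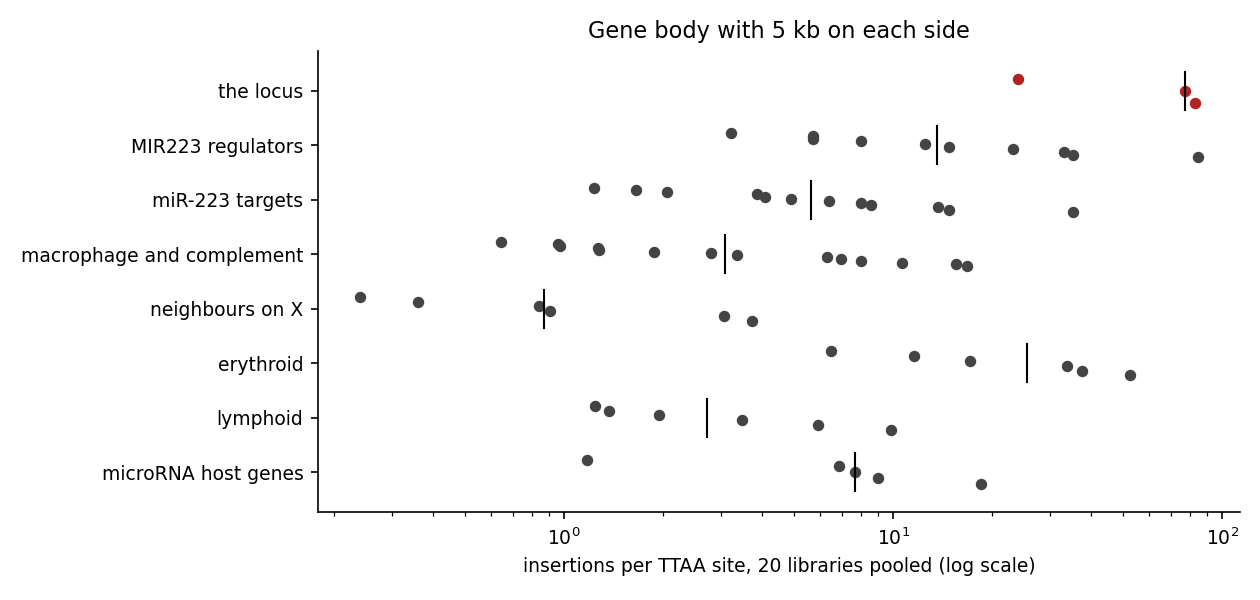
Insertions per TTAA site (log scale, 20 libraries pooled) for the 3 genes of the locus and for 7 gene lists, 1 point per gene, with the median of each list as a line. MIR223 and MIR223HG stand with CEBPB at the upper end, and the neighbours on X have the lowest median.

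Between helpers, few of the listed genes were called. Over all genes tested by edgeR's quasi-likelihood test 2.29% were called, 1.53% as lower with hyPBase-centrip and 0.766% as higher, and of 51 tested genes of the lists 2 were called. With library size as a term these were 3 of the 51, against 3.46% of all genes. The 2 genes were CEBPB, with a log2 fold change of -0.34 (edgeR adjusted p = 5.7e-05), and FBXW7, a ubiquitin ligase subunit among the miR-223 targets, with -0.14 (edgeR adjusted p = 0.0066). They were 1 of 9 tested regulators and 1 of 12 targets, and in the other 5 lists none of 33 tested was called. The list medians were between -0.10 and 0.10 on the log2 scale, against 0.00 over all tested genes. MIR223, MIR223HG and VSIG4 stood at -0.23, -0.21 and -0.22, all called by the contrast that chose them.

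The genes whose level varied over the 20 libraries most like that of MIR223HG were PDIK1L, a kinase gene (Pearson's r = 0.89 of log2 CPM), SLC30A5, a zinc transporter gene (0.88), TNFAIP8 (0.88), GAB2, a signaling adaptor gene (0.85), and CR1L (0.85). They were taken from 5087 protein-coding genes with at least 100 insertions per library, among which the median r was -0.03. These r values pool helpers whose means differ: within hyPBase the 5 genes had r of 0.66 (GAB2) to 0.88 (PDIK1L), and within hyPBase-centrip of 0.72 (CR1L) to 0.86 (GAB2). All of these levels fell with library size, since r with log2 library size was -0.78 for MIR223HG and between -0.87 and -0.61 for the 5 genes.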

How the data were processed

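The authors deposited, for each library, a list of insertions on hg38 with the count of reads behind each, its orientation and its barcode, not normalized. The submitters' processing notes name Trimmomatic, BWA and SAMtools, with no versions. Each line was taken as 1 insertion, and CPM values refer to insertions on chromosomes 1 to 22, X and Y. TTAA positions came from the hg38 sequence and gene models from GENCODE version 44. Of 22 libraries, 2 whose labels name different helpers were left out of comparisons. Members, gene lists and tests were chosen with earlier results of these data known. Named bins and sites are the 5 with most insertions (per TTAA site for bins), the bins of MIR223 and the VSIG4 start and the 2 bins of smallest p in each direction. Named genes are the 2 highest and 2 lowest of each list, those called, and the 5 protein-coding genes outside 2 Mb of the window most correlated with MIR223HG. Some genes that this rule names are not reported here.

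Counts per 2 kb bin (at least 10 insertions in at least 10 libraries) and per gene with 5 kb on each side were compared by edgeR 4.0.16 in R 4.3.3 (TMM, quasi-likelihood test, Benjamini-Hochberg adjusted p under 0.05), over all bins and genes. DESeq2 1.42.0 was an alternative. On simulated counts with 200 changed bins of 40111 the test recovered 48.0% at a 1.5-fold and 94.5% at a 2-fold change, and with 200 changed genes of 17107 it recovered 86.5% and 99.5%. False calls were 3 and 12 for bins and 7 and 6 for genes. Smaller changes, such as that of the dense stretch, were not simulated. Orientation and reads per insertion were tested by two-sided exact sign-flip permutation tests within helpers and by two-sided permutation tests with 100000 resamples between them (Python 3.11.15, numpy 2.4.6), adjusted over 7 segments (6 for reads; within helpers, over both helpers together) and, where stated, over all 16, of which 9 were added after the values were seen. Limits for a count of 0 use 3 counts and cover counting error only.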

Additional observations from a re-analysis of the deposited data

Results flagged for a closer look

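Among 92 groups of 10 libraries checked for a value far from the rest, over segments and measures, 1 stood out, where chance gives about 4.6. Within 1 kb of MIR223, hyPBase replicate 6 had 4.35% of its insertions in the plus orientation and the other hyPBase libraries had 0%, a gap that rests on 1 insertion.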

How the results depend on the processing

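Of 158 alternative values that could move, 143 kept the direction and the side of the threshold. Another 81 were left out: limits of the dense stretch for segments they do not bound, a hyPBase-centrip library for values of hyPBase alone, and counting each orientation once per site, which equals collapsing barcodes. In 2 cases the sign of a helper difference that was not called turned: with barcodes collapsed the plus share of the dense stretch went from -0.79 to 0.34 points, and without insertions of 1 read the reads per insertion of MIR223HG went from 0.01 to -0.044 (log2). The count of called bins in the window, 7 in the main analysis, was 4 when insertions with 1 read were dropped, 4 with DESeq2 and 2 without the filter on low counts. With barcodes collapsed it was 0 of 15 tested bins, with 0 at an unadjusted p under 0.05 by edgeR, and no bin of the genome was called either. Of the listed genes 2 were called, and 1 of 7 tested when only 1 kb on each side of the start was counted. Over the genome 861 of 40111 tested bins were called, 325 of these 40111 with DESeq2, 94 of 1309538 without the filter and 485 of 24778 after thinning reads, an alternative chosen after seeing the data. Of 17107 tested genes 392 were called, and 592 with library size as a term, against 79 of 3614 at the starts. Where the number tested is the same, the cause was not tested.

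For reads per insertion relative to the library (log2), leaving out hyPBase-centrip replicate 3, the smallest hyPBase-centrip library, took the value left of the dense stretch with hyPBase-centrip from 0.06 to 0.10 and the helper difference there from 0.10 to 0.15, both then past an unadjusted p of 0.05. In MIR223HG with hyPBase-centrip it gave -0.064 against -0.07, no longer past it. These thresholds are unadjusted. Dropping insertions with 1 read gave -0.35 around MIR223 with hyPBase-centrip, which was no longer past the threshold, and -0.11 in MIR223HG with hyPBase, which then was. The plus share of VSIG4 with hyPBase-centrip was then 4.29 points above 50% and no longer past it. The relations of the dense stretch with library size fell to r of -0.64 and -0.56 without the 2 libraries farthest from the median size. The helper difference in the dense stretch ranged from -0.27 to -0.18 (log2) over 12 alternatives. The dense stretch was 56 kb long at 3 times the mean and 42 kb at 10 times, and 38 kb with 1 kb bins, where it ended before MIR223HG. With 5 kb bins it was 55 kb.

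Replicate numbers did not pair the libraries: over 10 pairs, r of their deviations was between -0.06 and 0.07. With the replicate block the dense stretch gave -0.24, 7 bins and 2 listed genes were called, and no call on orientation or reads between helpers changed.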

Other observations

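For 2 further libraries the labels name different helpers, so they entered no comparison. They held 2379183 and 1853156 insertions, with 312.7 and 304.9 CPM in the dense stretch, 34.5 and 35.6 in the run upstream of VSIG4 and 19.75 and 19.97 in MIR223HG. Their plus-orientation shares were 35.3% and 36.8% in the dense stretch and 8.51% and 10.8% in MIR223HG.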
